A study of Mus musculus with 2 samples.

Results

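Mir122, Mir192, Mir194-1, Mir194-2 and Mir215, microRNA (miRNA) genes best known from liver, gut and kidney, were all counted in the embryonic mouse heart. They were taken by name, as the rows of the deposited count files whose Ensembl identifiers carry these symbols in GENCODE, which gave 5 genes of the 1973 miRNA genes counted. The tissue was heart of healthy B6NCrl mouse embryos at embryonic day 15.5 with no treatment, pooled over both sexes. Hearts of 78 embryos were pooled for replicate 1 and hearts of 62 for replicate 2. Both libraries belong to 1 group, and no second group was analysed here. The data therefore give the level of each gene within a library and the difference between the pools, and the spread between these libraries includes both the embryos and the library preparation.

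Replicate 1 held 3439539 counts on the strand of a miRNA gene and replicate 2 held 5833156. Levels are counts per 1000000 of these counts (CPM), so that 1 count is worth 0.291 CPM in replicate 1 and 0.171 CPM in replicate 2. Each count stands for a whole hairpin, in which the arms are not told apart. Reads that matched several places in the genome, 33.0% of the reads of replicate 1 and 30.1% of those of replicate 2, are in no gene count. Of the miRNAs of heart muscle, 4 were listed to check the labelled tissue, and these differed widely in level. Mir208a, Mir208b, Mir499 and Mir490 together had 62459 and 45593 CPM in replicates 1 and 2. Most of this was Mir208b (53878 and 37837 CPM), and Mir490 had only 118 and 126 CPM. Of further muscle miRNAs outside the list, Mir133a-1 had 5 and 7 counts, Mir133b 8 and 14, and Mir1b 5 and 9. The 5 liver and gut genes together came to 617 and 673 CPM, or 0.0617% and 0.0673% of the counts of replicates 1 and 2. In bulk tissue, many cells with little of a miRNA and few cells with much of it cannot be told apart.

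A miRNA gene is transcribed into an RNA that folds into a hairpin, from whose 5′ or 3′ arm (5p or 3p) a short mature RNA is cut. The mature RNA lowers the output of mRNAs that pair with its seed, bases 2 to 8. miR-122 is the predominant miRNA of hepatocytes, the main cells of the liver, where it acts in cholesterol and fatty acid metabolism. miR-192, miR-194 and miR-215 are miRNAs of liver, intestinal and kidney epithelium, and in human cells they are raised by the tumour suppressor p53. In mouse as in human their genes lie in 2 paired loci, each with a miR-194 gene beside a gene of the miR-192 and miR-215 family.

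The mature RNAs of the paired loci, for which RefSeq (GRCm38.p6) gives sequences, show which genes share a seed and which cannot be counted apart. They are printed 5′ to 3′ with the seed in capitals.
mmu-miR-192-5p: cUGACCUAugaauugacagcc
mmu-miR-215-5p: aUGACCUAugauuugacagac
mmu-miR-194-5p: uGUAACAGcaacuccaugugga
mmu-miR-194-1-3p: cCAGUGGAgcugcuguuacuuc
mmu-miR-194-2-3p: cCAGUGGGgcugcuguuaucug

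The 5p RNAs of Mir192 and Mir215 had the same seed, which no other of the 1679 mature miRNA names compared carried. Counted from the 5′ end of mmu-miR-192-5p, they differed by C1A, A12U and C20A, which leaves 85.7% of the 21 bases equal. A single mature sequence, mmu-miR-194-5p, comes from both Mir194-1 and Mir194-2, whereas their 3p RNAs differ by A8G, C19U, U20C and C22G, counted from the 5′ end of mmu-miR-194-1-3p. The first of these changes lies in the seed. The hairpins of the 2 miR-194 genes are shown whole, with the mature arms in capitals, because their counts depend on where they differ.
Mir194-1: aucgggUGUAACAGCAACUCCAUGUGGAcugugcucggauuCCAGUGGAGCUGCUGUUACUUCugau
Mir194-2: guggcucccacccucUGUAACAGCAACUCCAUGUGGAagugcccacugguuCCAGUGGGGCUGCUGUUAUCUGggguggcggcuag

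The longest stretch that these hairpins share was 22 bases, from base 7 to base 28 of Mir194-1 and from base 16 to base 37 of Mir194-2. It is exactly the mature 5p RNA, so a read of that RNA with no base beyond it matches both genes. Such a read is in neither count if it was set aside as matching several places, and the counts of both genes can fall short of their level. Mir192 and Mir215 shared no stretch of 16 bases or more with any other annotated miRNA hairpin.

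Mir194-1 (ENSMUSG00000065581.1) and Mir215 (ENSMUSG00000065562.1) lie on the plus strand of chromosome 1 (GRCm38, mm10), at positions 185313319 to 185313385 and 185313581 to 185313692. Both are inside the noncoding gene 2010103J01Rik on their own strand, Mir194-1 between its exons and Mir215 overlapping one. On the other strand both lie in an intron of Iars2, which encodes a mitochondrial isoleucine tRNA ligase. Mir194-2 (ENSMUSG00000065582.1) and Mir192 (ENSMUSG00000065523.1) lie on the plus strand of chromosome 19, at positions 6264643 to 6264728 and 6264844 to 6264932, outside any other annotated gene. The hairpins of the pair on chromosome 1 are 195 bases apart and those of the pair on chromosome 19 are 115 bases apart, with the miR-194 gene first in both.

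**Figure D1:**
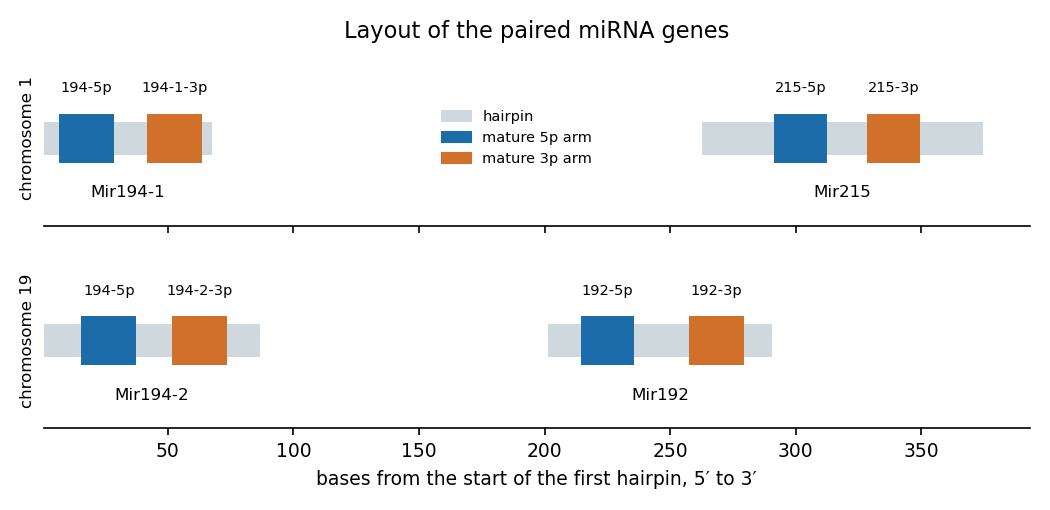
Layout of the paired miRNA genes on chromosomes 1 and 19, in bases from the start of the first hairpin, with hairpins in grey, mature 5p arms in blue and mature 3p arms in orange. In both pairs the miR-194 hairpin precedes the hairpin of the miR-192 and miR-215 family, with a gap of 195 bases on chromosome 1 and of 115 bases on chromosome 19.

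Mir215 had the highest mean level of the 5 genes and the miR-194 genes the lowest, by counts that may lack reads of the shared miR-194 5p RNA. Mir215 had 1387 counts in replicate 1 and 1461 in replicate 2, or 403 CPM (exact binomial 95% interval 382 to 425) and 250 CPM (238 to 264), with a mean of 327 ± 108 CPM (SD, n = 2). Its partner Mir194-1 had 157 and 174 counts, or 45.6 CPM (38.8 to 53.4) in replicate 1 and 29.8 CPM (25.6 to 34.6) in replicate 2, with a mean of 37.7 ± 11.2 CPM. Both genes of the chromosome 1 pair were thus higher in replicate 1, with intervals that do not overlap between the libraries. Intervals here cover counting error only, since each was computed within a single library and leaves out the spread between the pools. The counts are of reads and not of marked RNA molecules.

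The chromosome 19 pair was close to level between the pools. Mir192 had 168 and 264 counts, or 48.8 CPM (41.7 to 56.8) in replicate 1 and 45.3 CPM (40.0 to 51.1) in replicate 2, with a mean of 47.1 ± 2.54 CPM. Mir194-2 had 109 and 229 counts, or 31.7 CPM (26.0 to 38.2) and 39.3 CPM (34.3 to 44.7), with a mean of 35.5 ± 5.35 CPM. For both genes the intervals of the libraries overlap. Summed, the pair on chromosome 19 had 80.5 and 84.5 CPM in replicates 1 and 2, and the pair on chromosome 1 had 449 and 280 CPM.

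Mir122 (ENSMUSG00000065402.1) stood apart from the other 4 genes in how far the pools differed. Its hairpin lies on the plus strand of chromosome 18, at positions 65248861 to 65248926, overlapping an exon of the noncoding gene AC157910.3, and shares no stretch of 16 bases or more with another annotated miRNA hairpin. It had 300 counts in replicate 1 and 1800 in replicate 2, or 87.2 CPM (77.6 to 97.7) and 309 CPM (294 to 323), with a mean of 198 ± 157 CPM. The SD was 79.1% of the mean for Mir122, against 33.1% for Mir215, 29.6% for Mir194-1, 15.1% for Mir194-2 and 5.39% for Mir192. Mir122 made up 14.1% of the counts of the 5 genes in replicate 1 and 45.8% in replicate 2.

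**Figure D2:**
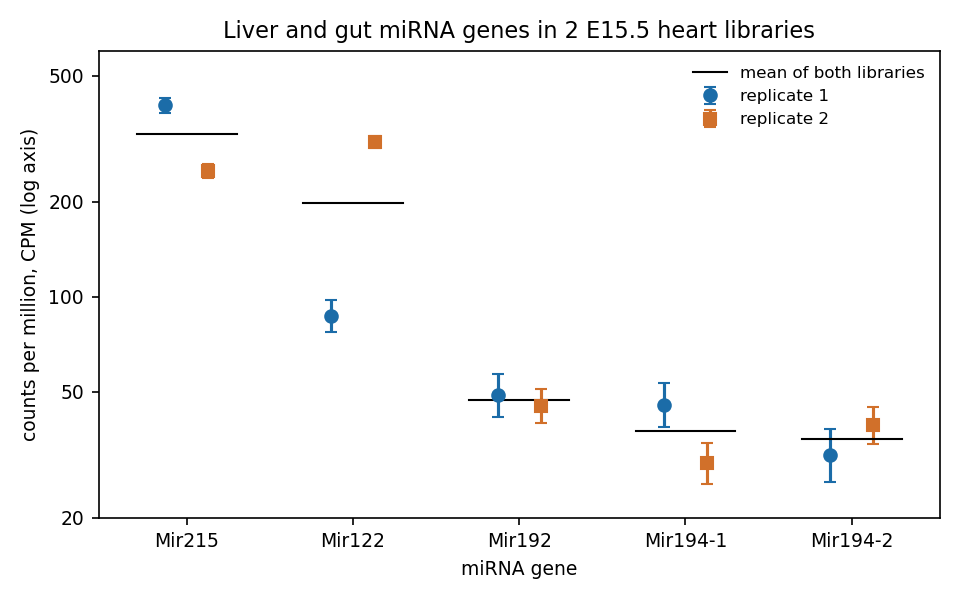
CPM of the 5 miRNA genes (log axis) in replicate 1 (blue circles) and replicate 2 (orange squares), with exact binomial 95% intervals and a black line at the mean of both libraries. Mir215 (403 and 250 CPM) and Mir194-1 (45.6 and 29.8 CPM) were higher in replicate 1, Mir122 (87.2 and 309 CPM) in replicate 2, and the intervals of Mir192 and of Mir194-2 overlap between the libraries.

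By mean level the order was Mir215, Mir122, Mir192, Mir194-1 and Mir194-2. The first step does not hold in both pools, since Mir122 lay below Mir215 in replicate 1 and above it in replicate 2. Mir122 was above Mir192 in both libraries. The ranges of Mir192 and Mir194-1 over the libraries overlap, but within each library Mir192 was above Mir194-1. Their intervals overlap in replicate 1 and are apart in replicate 2 (40.0 to 51.1 and 25.6 to 34.6 CPM). Mir194-1 lay above Mir194-2 in replicate 1 and below it in replicate 2, so the miR-194 genes do not differ beyond their spread. Reads of the shared miR-194 5p RNA may be missing from the counts of both. Their place in the order is therefore one of counts. Among all 1973 genes, Mir215 ranked 103 in replicate 1 and 139 in replicate 2, and Mir122 ranked 181 and 125. The ranks of the other 3 genes lay between 209 and 247. All 5 genes had at least 10 counts in both libraries, a level that 327 of the 1973 genes reached.

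The pools were compared gene by gene by an exact conditional binomial test at library sizes scaled with edgeR's TMM method (a trimmed mean of the log ratios of genes), adjusted over all 413 genes with at least 10 counts summed. This test sets 1 library against the other with counting noise alone as its error, and compares no conditions. It called 46.5% of all genes tested, 21.8% as higher in replicate 1 and 24.7% as higher in replicate 2. Of the 5 liver and gut genes 3 were called, 2 of them as higher in replicate 1 and 1 as higher in replicate 2, a share that rests on few genes and is near that over all genes. The median log2 ratio of replicate 1 over replicate 2 was 0.28 over the 5 genes and -0.04 over all genes tested.

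Log2 ratios and folds between the libraries use the TMM scaling, whereas CPM use total counts, so they need not match ratios of the printed CPM. Mir215 was higher in replicate 1 by a log2 ratio of 0.86, or 1.82-fold (adjusted p = 6.37e-55, exact conditional binomial test). Mir194-1 was higher in replicate 1 by nearly as much, at a log2 ratio of 0.79 (adjusted p = 3.65e-06, same exact test). Mir122 was lower in replicate 1 by a log2 ratio of -1.65, a 3.13-fold difference (adjusted p = 5.41e-95, same exact test). The log2 ratios of Mir192 (0.28, adjusted p = 0.0944) and Mir194-2 (-0.13, adjusted p = 0.59, same exact test) did not pass.

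Against the spread among all genes the difference in Mir122 was large but not alone. Of the 327 genes with at least 10 counts in both libraries, 17, or 5.20%, had a log2 ratio at least as far from 0 as that of Mir122. The corresponding shares were 11.6% for Mir215 and 12.5% for Mir194-1. The median distance from 0 over these genes was 0.24. Where the spread between the libraries over all genes was taken as the error (edgeR's exact negative binomial test with a common coefficient of variation of 29.9%, an alternative chosen after seeing the data), no call on the 5 genes remained. The adjusted p was then 0.196 for Mir122, with an unadjusted p of 0.00994, and 1 for Mir215 and for Mir194-1, and 7 of the 413 genes were called, 0 of them as higher in replicate 1 and 7 as higher in replicate 2. Scaling by total counts moved the median log2 ratio of all genes by -0.17 and the share of calls that were higher in replicate 1 to 23.6%, against 46.9% with TMM, and the same 3 of the 5 genes were called in the same directions.

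**Figure D3:**
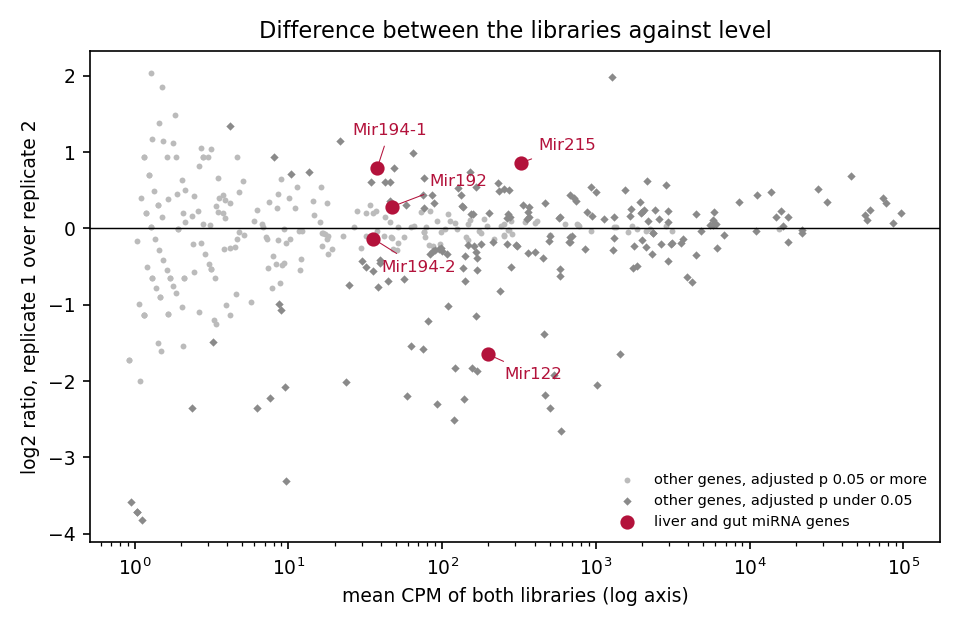
Log2 ratio of replicate 1 over replicate 2 (vertical axis) against mean CPM (horizontal log axis) for the 413 genes tested, with the 5 liver and gut genes in red and the other genes in grey, as diamonds where the adjusted p was under 0.05. Mir122 lies at -1.65, and Mir215 and Mir194-1 lie at 0.86 and 0.79.

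Ratios within a library do not depend on how the libraries were scaled. On chromosome 1 Mir215 had 8.83 times the counts of Mir194-1 in replicate 1, with an exact binomial 95% interval of 7.49 to 10.5, and 8.40 times in replicate 2, with an interval of 7.17 to 9.88. Both neighbours were higher in replicate 1, and the intervals of their ratio overlap, with a mean log2 ratio of 3.11 ± 0.05 (SD, n = 2). On chromosome 19 the ratio of Mir192 to Mir194-2 was 1.54 (1.20 to 1.98) in replicate 1 and 1.15 (0.962 to 1.38) in replicate 2, with overlapping intervals. Reads of the shared miR-194 5p RNA may be missing from both ratios, so these are ratios of counts and need not be ratios of amounts.

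Between the paired loci the ratios differed between the pools. Mir192, which has the same seed as Mir215, had 0.121 times its counts in replicate 1 (0.103 to 0.142) and 0.181 times its counts in replicate 2 (0.158 to 0.206), and the intervals do not overlap. Mir194-1 exceeded Mir194-2 in replicate 1, at a ratio of 1.44 (1.12 to 1.86), and lay below it in replicate 2, at 0.760 (0.620 to 0.929). The mean log2 ratio of these copies was 0.07 ± 0.65, so that with both pools together neither was higher beyond the spread. Of the 2 genes with the shared seed, Mir215 held most of the counts in both libraries.

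Mir122 differed between the pools in the opposite direction to Mir215 and Mir194-1. The ratio of the counts of Mir122 to those of Mir192 was 1.79 (1.47 to 2.17) in replicate 1 and 6.82 (5.99 to 7.79) in replicate 2. The ratio of Mir215 to Mir122, a pair added later, was 4.62 (4.08 to 5.26) in replicate 1 and 0.812 (0.757 to 0.870) in replicate 2, a difference of 2.51 on the log2 scale. Without Mir122, the other 4 genes together had 529 and 365 CPM in replicates 1 and 2.

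**Figure D4:**
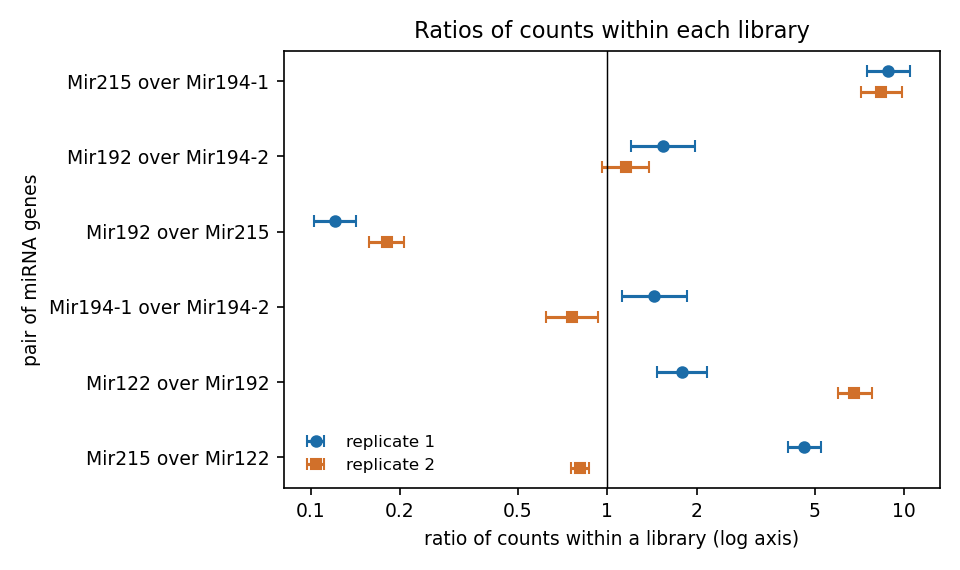
Ratio of counts within replicate 1 (blue circles) and replicate 2 (orange squares) for 6 pairs of the miRNA genes (log axis), with exact binomial 95% intervals and a vertical line at 1. The ratio of Mir215 to Mir194-1 (8.83 and 8.40) was close in both libraries, whereas those that involve Mir122 (1.79 and 6.82 to Mir192) were far apart.

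The other miRNAs known from digestive organs were mixed in level. Mir148a, abundant in liver among other tissues, had 894 and 865 CPM in replicates 1 and 2, and Mir31 had 129 and 157 CPM. Mir375, a miRNA of pancreatic islets and other endocrine cells, had 146 and 1035 CPM. Mir802, a miRNA of liver, kidney and pancreas, had 4 and 14 counts, or 1.16 and 2.40 CPM. Mir217 (3 and 6 counts) and Mir216a (0 and 2 counts), both of the exocrine pancreas, were at or near the limit of 3 counts that a count of 0 allows. Of the 4 genes of this list that had enough counts to be tested, 1 was called as higher in replicate 1 (Mir148a, log2 ratio 0.22). Another, Mir375 (-2.65), was called as higher in replicate 2. Over all genes tested, 21.8% were called as higher in replicate 1 and 24.7% as higher in replicate 2. By total counts Mir148a was no longer called and Mir31 was called as higher in replicate 2.

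Markers of other cell types also differed between the pools. All 7 genes of the epithelium list, the Mir200 family with Mir203 and Mir205, were called as higher in replicate 2, beside 24.7% of all genes tested. Mir122 was called in the same direction. These 7 genes had log2 ratios from -2.35 (Mir205) to -0.39 (Mir203), with a median of -1.65. They summed to 1821 CPM and 6297 CPM in replicates 1 and 2, and all 7 were called in this direction under each scaling tried. In the erythroid list Mir451a had 1975 and 564 CPM, Mir144 had 401 and 422 CPM, and Mir486 had 80.8 and 110 CPM in replicates 1 and 2. Mir451a was called as higher in replicate 1 under each scaling, whereas Mir144 (log2 ratio 0.10) turned below 0 by total counts and was called as higher in replicate 1 with DESeq2 size factors, and Mir486 (-0.27) was not called with DESeq2 size factors. Mir215 and Mir194-1 were called as higher in replicate 1. So were 3 of 4 genes of the heart muscle list, beside 21.8% of all genes tested, with a list median of 0.42. The same 3 were called by total counts and with DESeq2 size factors, and the fourth, Mir490 (log2 ratio 0.07), turned below 0 by total counts. Mir133a-1, Mir133b and Mir1b, outside this list, had few counts and were not called with TMM. With the negative binomial test Mir205 was the 1 gene of the epithelium list still called, and 0 genes of the erythroid and heart muscle lists were. The part of any of these cell types in the values of the liver and gut genes was not tested.

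The p53-induced miRNAs Mir34a, Mir34b, Mir34c, Mir107 and Mir145a, listed because p53 is also known to raise miR-192, miR-194 and miR-215 in human cells, had log2 ratios above 0 with TMM. In this list 4 of 5 genes were called as higher in replicate 1, beside 21.8% of all genes tested, with a median log2 ratio of 0.49. With the negative binomial test 0 of the 5 were called. The list is a choice and does not hold every miRNA that p53 raises. Of the paired liver and gut genes, Mir215 and Mir194-1 were called as higher in replicate 1 with TMM. Mir192 (log2 ratio 0.28) and Mir194-2 (-0.13) were not called. Whether p53 has a part in any of these values was not tested. Mir34a had 261 and 210 CPM and Mir34b 16.3 and 11.0 CPM in replicates 1 and 2, whereas Mir34c (334 and 356 CPM, log2 ratio 0.08) did not pass. By total counts every log2 ratio was lower by 0.17 than with TMM, so that Mir34c turned below 0 and Mir34b was no longer called. Mir107 shares 24 bases with Mir103-1, and reads of that stretch may be missing from its counts.

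**Figure D5:**
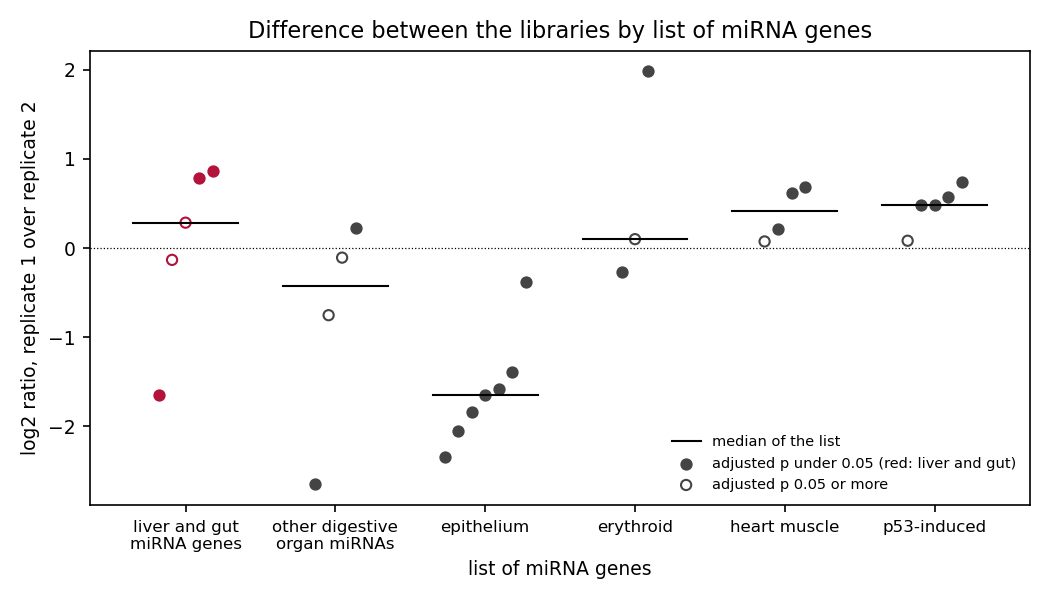
Log2 ratio of replicate 1 over replicate 2 for each tested gene of the liver and gut set (red) and of 5 further lists, filled where the adjusted p was under 0.05 and open otherwise, with a line at the median of each list. The liver and gut genes run from -1.65 (Mir122) to 0.86 (Mir215), and all 7 epithelium genes lie below 0.

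The genes most like each of the 5 in level were found by the Euclidean distance of log2(CPM + 0.5) over both libraries. Nearest to Mir122 were Mir128-1 (95.1 and 239 CPM in replicates 1 and 2, distance 0.39), Mir96 (66.0 and 271 CPM, 0.44) and Mir106a (62.5 and 251 CPM, 0.56). That all of them were lower in replicate 1, like Mir122, was set by this choice. Nearest to Mir215 were Mir302a (353 and 323 CPM, 0.41), Mir302d and Mir195a. Mir192 lay closest to Mir331 (48.6 and 42.9 CPM, 0.08), followed by Mir30c-2 and Mir877. Mir194-1 had Mir450-2 (39.5 and 29.3 CPM, 0.21), Mir301b and Mir302c as its neighbours in level, and Mir194-2 had Mir7689 (34.9 and 40.5 CPM, 0.14), Mir668 and Mir103-2. With 2 libraries this likeness is one of levels alone. Mir128-1, Mir302a, Mir30c-2, Mir450-2 and Mir103-2 share 20 bases or more with another hairpin. Reads of those stretches may be missing from their counts.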

How the data were processed

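The authors deposited whole, unnormalized read counts per miRNA gene, 1 file per library. Reads were placed on mm10 and genes follow GENCODE M4, per the file headers in the deposited text descriptions. For the aligner and the counter, a name is not given in the sources used here. Of 3 count columns (either strand, strand of the gene, opposite strand) the second was used. Lines that name no gene stayed out of totals: reads matching several places (33.0% of reads in replicate 1, 30.1% in replicate 2), unmapped reads (13.1% and 15.1%) and reads on no annotated miRNA gene (5.11% and 5.07%). GENCODE M21 gave symbols and positions for 1894 of 1973 identifiers.

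Libraries were scaled by TMM in edgeR 4.0.16 (R 4.3.3). Genes with at least 10 counts summed were compared by an exact conditional binomial test (two-sided), with p-values adjusted by Benjamini-Hochberg and called under 0.05. Log2 ratios between libraries carry a pseudocount of 0.5 counts. The binomial test was tried on simulated counts with counting noise alone. Those counts held no further spread between libraries, so the trial does not show how the test behaves under the spread seen here. Alternatives were total counts, DESeq2 1.42.0 size factors, no count filter, either strand, all reads as the denominator, each library alone and, added after seeing the data, edgeR's exact negative binomial test. Whether the labelled biological replicates share parents is not stated, so p-values apply only to these libraries. Those of the binomial test take counting noise alone as the error and do not measure the spread between the libraries. Named genes are the 5 genes, 5 companion lists and the 3 genes nearest in level to each. Mir133a-1, Mir133b and Mir1b were named later, outside the lists. The genes and lists were chosen with earlier results of these data known. Other steps used Python 3.11.15, numpy 2.4.6, pandas 2.3.3, scipy 1.17.1 and matplotlib 3.10.9.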

Additional observations from a re-analysis of the deposited data

Results flagged for a closer look

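Reads on the strand opposite a gene, which enter none of the comparisons above, exceeded the limit of 3 counts for 2 of the 5 genes. Opposite Mir122 there were 4 counts in replicate 1 and 6 in replicate 2, beside 300 and 1800 on its own strand. Opposite Mir194-1 there were 4 counts in replicate 2 and 1 in replicate 1, beside 174 and 157 on its own strand. Mir192, Mir194-2 and Mir215 had 0 counts on the opposite strand in both libraries. What these reads are was not tested.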

How the results depend on the processing

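Of 192 genes called as differing between the libraries, 162 were also called by total counts (203 calls), 177 with DESeq2 size factors (188), 179 without the count filter (180) and 191 with either strand (200). Under these settings each of the 5 genes kept its direction and its side of the threshold, with log2 ratios from -1.82 to -1.61 for Mir122 and from 0.69 to 0.90 for Mir215. The exact negative binomial test called 7 genes, all higher in replicate 2, and the log2 ratios of Mir122 (-1.65), Mir194-1 (0.79) and Mir215 (0.86) no longer passed, since its error includes the spread between the libraries. With all reads of a library as the denominator, mean levels were 161 CPM for Mir215, 97.9 for Mir122, 23.2 for Mir192, 18.5 for Mir194-1 and 17.5 for Mir194-2, because about as many reads were left uncounted as were counted. With each library alone, the log2 ratio of Mir194-1 to Mir194-2 ran from -0.40 to 0.53 and that of Mir215 to Mir122 from -0.30 to 2.21, negative in replicate 2. With 1 group of 2 libraries there is no test of any condition.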
